A study of Mus musculus with 2 samples.

Results

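The genes described here encode the enzymes that turn secreted procollagen into crosslinked fibres: the lysyl oxidases Lox, Loxl1, Loxl2, Loxl3 and Loxl4, the procollagen C-proteinase Bmp1, its enhancers Pcolce and Pcolce2, and the procollagen N-proteinases Adamts2 and Adamts14. They were taken by gene symbol from a table of 24532 mouse genes, and all 10 symbols were found, each in 1 row. All 10 also passed a minimum of 5 CPM (counts relative to library size), averaged over both libraries; the 9935 genes that did so are called measured genes below. Cardiac myofibroblasts, the matrix-secreting cells that fibroblasts become in an injured heart, had been isolated from C57BL/6 mice 3 days after myocardial infarction. One group, siBcat1, had been transfected with 12.5 nM of an siRNA against Bcat1, the gene of the cytosolic branched-chain aminotransferase; the other, siControl, with 12.5 nM of a control siRNA. Both were kept for 72 hours in serum-containing medium, and messenger RNA was sequenced in 1 library per group. With 1 library each there is no spread between replicates and no test, so every difference below is a difference between these libraries. An effect of one particular siRNA cannot be told apart from an effect of lower Bcat1.

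Procollagen leaves the cell with propeptides at both ends. ADAMTS2 and its relative ADAMTS14 remove the amino-terminal propeptide, and BMP1, helped by the enhancer proteins that Pcolce and Pcolce2 encode, removes the carboxy-terminal one, after which the molecules assemble into fibrils. Lysyl oxidases, copper-dependent enzymes, then oxidise lysine residues of collagen and elastin to aldehydes that form the crosslinks, and BMP1 also cleaves the LOX proenzyme. In the infarcted heart these steps help give the scar its tensile strength and its stiffness.

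The libraries held 104581819 counts (siBcat1) and 127309329 counts (siControl), and counts were scaled by TMM factors, which correct for library composition. Bcat1 had 99 counts in siBcat1 and 8891 in siControl, a log2 fold of -6.11 [-6.41 to -5.83]. A log2 fold is always siBcat1 over siControl, and brackets hold the exact 95% interval of counting error alone, which takes reads as independent and is too narrow where PCR copied them. All 7 fibroblast markers were measured, and summed to 2759 TPM (abundance corrected for transcript length) in siBcat1 and 8560 in siControl, mostly from Col1a1 and Col1a2. Of 5 myofibroblast markers 4 were measured, with sums of 3965 TPM in siBcat1 and 5301 in siControl. Lrrc15 was near the floor in both, with no count in siBcat1 and 17 in siControl. Both sums were lower in siBcat1, as were 9 of the 10 genes, but the median log2(TPM + 1) fold of all measured genes was also -0.52. In scaled counts the fibroblast markers had log2 folds of -1.35 (Col1a1), -1.28 (Col1a2), -0.76 (Ddr2), -0.43 (Pdgfra), -0.15 (Dcn), -0.09 (Tcf21) and 0.63 (Thy1). The measured myofibroblast markers had -1.19 (Postn), -0.22 (Cthrc1), -0.11 (Acta2) and 0.48 (Tagln). Of 8 macrophage markers, Adgre1, C1qa, Fcgr1 and Ptprc had no count in either library, and C1qb had none in siBcat1 and 4 in siControl. The macrophage list summed to 32.3 TPM in siBcat1 and 13.1 in siControl, mostly from Lyz2. Cardiomyocyte markers summed to 12.7 TPM in siBcat1 and 80.8 in siControl, nearly all from Tnnt2, with Myh6, Ryr2 and Nppa at 0 in both. Endothelial markers summed to 11.6 TPM in siBcat1 and 10.1 in siControl. The smooth muscle or pericyte markers summed to 1.53 TPM in siBcat1 and 2.92 in siControl. The part of such cells in the results was not tested, and fewer cells of a type cannot be told apart from less RNA per cell.

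The siBcat1 library had less of 9 of the 10 transcripts and more of 1, Pcolce2; with the length trend described below removed, Bmp1 turned to slightly higher, and with one of the lengths Loxl4 did too. Among the 10, Loxl2, Adamts2, Adamts14 and Loxl3 were at least 2-fold lower, a size that 13.0% of all measured genes reached, and none was at least 2-fold higher, which 5.58% of measured genes were. At least 1.5-fold lower were 5 of the 10 (25.6% of measured genes), and 1 was at least 1.5-fold higher (17.6%). The median log2 fold was -0.60 over the 10 genes and -0.06 over all measured genes. Summed, the 10 genes took 0.159% of all TPM in siBcat1 and 0.314% in siControl. On the log2(TPM + 1) scale the median fold of all measured genes was -0.52.

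**Figure D1:**
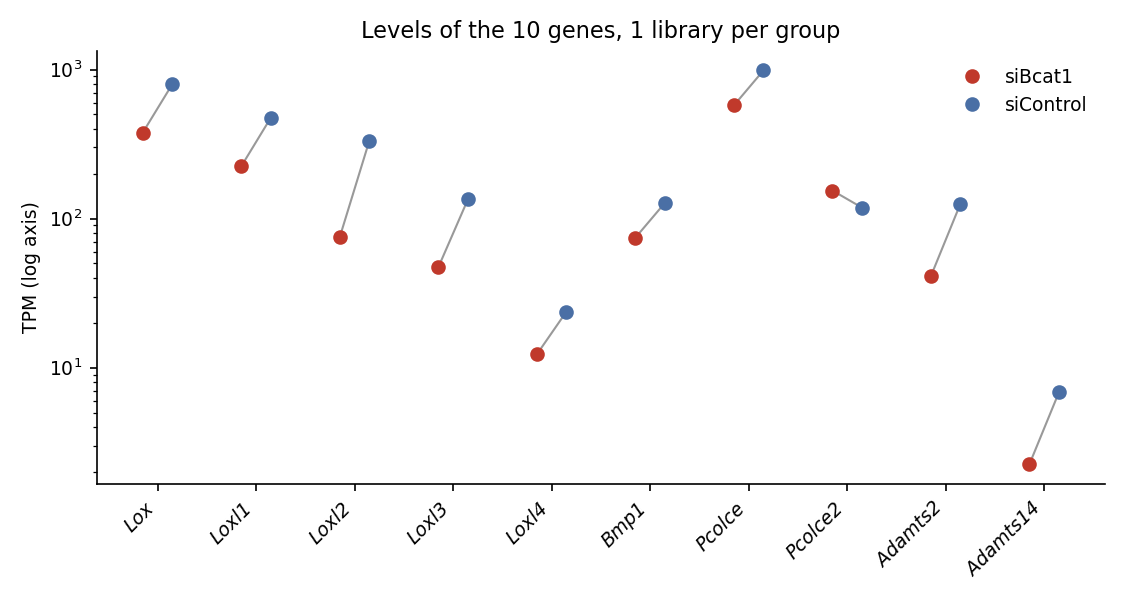
Level of each gene in TPM (log axis) in the siBcat1 library (red, left) and the siControl library (blue, right), 1 library per group, joined by a line. Pcolce2 is the gene whose siBcat1 point lies above its siControl point (154 and 119 TPM), and Loxl2 has the steepest line (75.5 and 334 TPM).

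In these libraries folds followed transcript length: across 9926 measured genes with an annotated length, which are not independent replicates, the Spearman correlation of log2 fold and length was -0.653. Each gene is therefore also given with that trend removed, called length-adjusted. The adjustment used either the annotated length or the length that the deposited counts and TPM imply together. With the annotated length, 1 of the 10 genes (Loxl2) was at least 2-fold lower (5.39% of measured genes) and 1 (Pcolce2) at least 2-fold higher (4.11%). At 1.5-fold, 3 were lower (14.3%) and 1 was higher (12.8%), and the median of the 10 was -0.34. For most of the genes the annotated and implied lengths were close, but 3 stood apart. Loxl2 had 3042 annotated and 5180 implied bases, Loxl4 had 3178 and 5435, and Pcolce2 had 4438 and 1866. For these 3 genes the adjusted value depends on which length is used, and both are given.

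**Figure D2:**
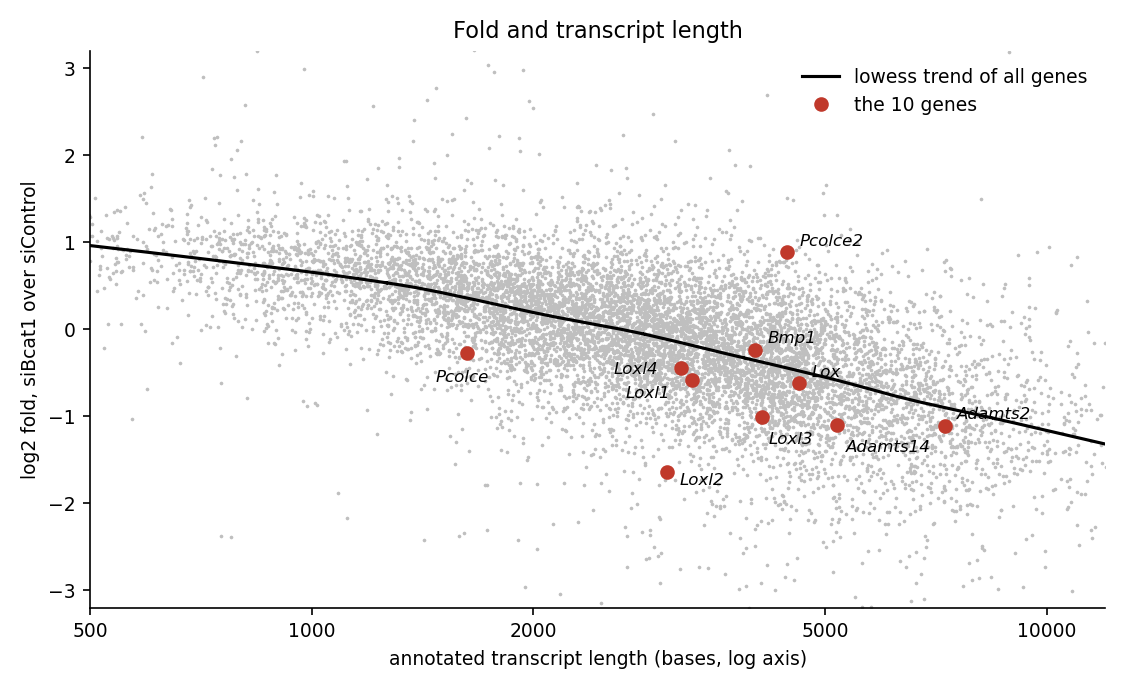
Log2 fold (siBcat1 over siControl) against annotated transcript length (bases, log axis) for 9745 measured genes (grey; 180 lie outside the axes), with the lowess trend (black) and the 10 genes (red). Loxl2 lies farthest below the trend and Pcolce2 farthest above it, while Adamts2, Lox and Bmp1 lie close to it.

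Among the lysyl oxidases, Lox was the most abundant in both libraries. Lox, the founding member of the family (chromosome 18), had 123041 counts in siBcat1 and 244644 in siControl, or 378 and 799 TPM. Its log2 fold was -0.62 [-0.63 to -0.61], and 24.5% of measured genes had a fold at or below that. Length-adjusted, Lox had -0.14 with the annotated and -0.12 with the implied length, and -0.33 with a trend on GC content removed as well.

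Loxl1, which acts mainly on elastin (GRCm38, chromosome 9, 58287738 to 58313186, on the minus strand), had 51995 counts in siBcat1 and 100651 in siControl, or 225 and 476 TPM. The log2 fold of Loxl1 was -0.58 [-0.59 to -0.56], and length-adjusted it was -0.39 or -0.37. Loxl1 and Lox kept nearly the same proportion within each library. Loxl1 stood at 59.5% of the Lox TPM in siBcat1 and at 59.6% in siControl.

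Loxl2, a lysyl oxidase with scavenger receptor domains that crosslinks collagen IV and fibrillar collagen (chromosome 14, 69609068 to 69695834, plus strand), differed most. It had 27098 counts in siBcat1 and 109538 in siControl, or 75.5 and 334 TPM, so the siBcat1 level was 32.1% of the siControl level in scaled counts and 22.6% in TPM. The log2 fold was -1.64 [-1.66 to -1.62], and 4.21% of measured genes had a fold at or below it. Length-adjusted, Loxl2 had -1.52 with the annotated and -1.07 with the implied length, and was past 2-fold on both. Within a library, Loxl2 stood at 20.0% of the Lox TPM in siBcat1 and at 41.8% in siControl. By rank, Loxl2 was at place 1717 of all genes by TPM in siBcat1 and at place 467 in siControl.

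Loxl3, a close relative of Loxl2 (chromosome 6, 83034173 to 83052562, plus strand), had 13243 counts in siBcat1 and 34512 in siControl, or 47.2 and 134.5 TPM. Its log2 fold was -1.01 [-1.04 to -0.98], an interval that spans the 2-fold mark, and length-adjusted it was -0.63 or -0.65. Loxl4 (chromosome 19, 42593982 to 42612813, minus strand) was the scarcest of the family, with 4631 counts in siBcat1 and 8183 in siControl, or 12.3 and 23.8 TPM. For Loxl4 the log2 fold was -0.45 [-0.50 to -0.39], and the length-adjusted value was -0.29 with the annotated length and 0.17 with the implied length, so its direction depends on the length used.

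Shares within the family need no scaling between the libraries. The 5 lysyl oxidases summed to 738 TPM in siBcat1 and 1767 in siControl. Loxl2 made up 10.2% of that sum in siBcat1 and 18.9% in siControl, or 12.3% [12.2 to 12.5] and 22.0% [21.9 to 22.1] of the family's counts. Lox made up 51.2% of the summed TPM in siBcat1 and 45.2% in siControl, and Loxl1 30.5% and 26.9%. The share of Loxl3 was 6.40% in siBcat1 and 7.62% in siControl, and that of Loxl4 was 1.67% and 1.35%. The order by level was Lox, Loxl1, Loxl2, Loxl3, Loxl4 in both libraries.

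**Figure D3:**
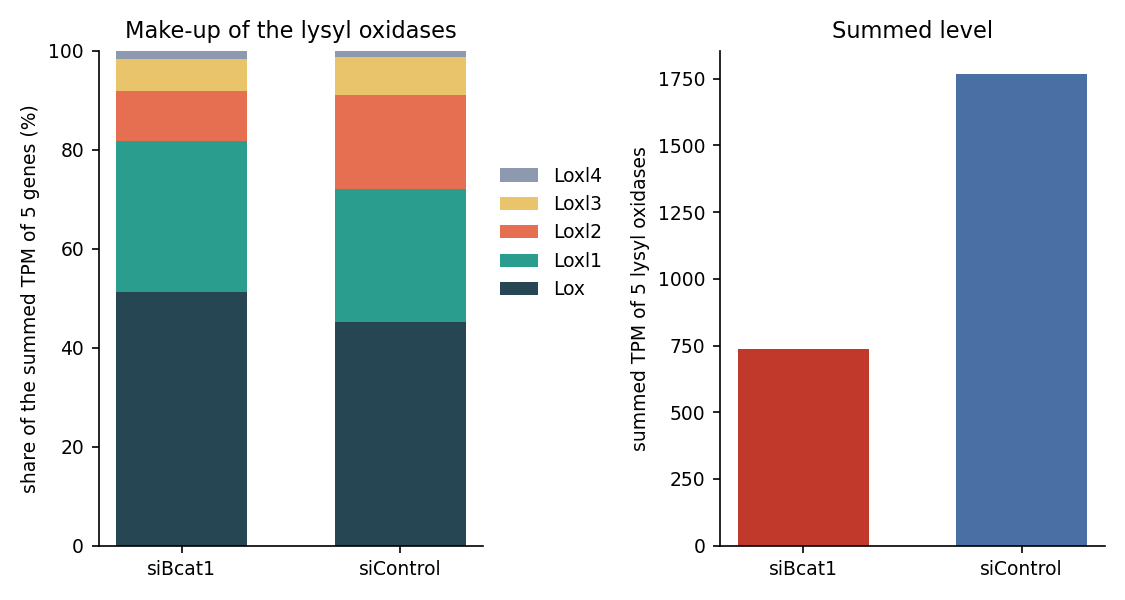
Left, share of each lysyl oxidase in the summed TPM of the 5 genes (%) in siBcat1 and siControl; right, that sum in TPM, 1 library per group. The Loxl2 band is 10.2% in siBcat1 and 18.9% in siControl, and the sums are 738 and 1767 TPM.

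In the C-propeptide step the enhancer genes went opposite ways, and Bmp1 and Pcolce had the smallest unadjusted folds of the 10 genes. Bmp1, the C-proteinase, an astacin-type metalloprotease (chromosome 14, 70474558 to 70520234, minus strand), had 20719 counts in siBcat1 and 31595 in siControl, or 74.4 and 128 TPM. The log2 fold was -0.23 [-0.26 to -0.21] and the length-adjusted value 0.12 or 0.11, of the opposite sign. Pcolce, which encodes the main C-proteinase enhancer and was the most abundant of the 10 genes in both libraries (chromosome 5, 137605103 to 137613784, minus strand), had 61280 counts in siBcat1 and 96147 in siControl, or 574 and 986 TPM. Its log2 fold was -0.27 [-0.29 to -0.26]. With the shortest annotated transcript of the 10 (1626 bases), Pcolce moved away from 0 on adjustment, to -0.63 or -0.66. That was the lowest of the 10 after Loxl2, but Loxl3 was nearly equal, at -0.63 or -0.65. With a GC trend removed as well, Pcolce had -0.50 and Loxl3 was lower, at -0.52.

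Pcolce2, the gene of the second enhancer (chromosome 9, 95637601 to 95698096, plus strand), had 19966 counts in siBcat1 and 14018 in siControl, or 154 and 119 TPM. The log2 fold of Pcolce2 was 0.89 [0.85 to 0.92], and 92.1% of measured genes had a fold at or below it. Length-adjusted, it was 1.33 with the annotated and 0.64 with the implied length. On the log2(TPM + 1) scale the value was 0.38, the same direction and smaller. Pcolce2 stood at 26.9% of the Pcolce TPM in siBcat1 and at 12.0% in siControl, a 2.23-fold higher ratio that needs no scaling between libraries. Pcolce, in turn, stood at 772% of the Bmp1 TPM in siBcat1 and at 773% in siControl. Summed, the enhancer genes had 729 TPM in siBcat1 and 1105 in siControl, on a scale where the median log2(TPM + 1) fold of all measured genes was -0.52. In scaled counts the enhancer genes offset each other more, with Pcolce at 605 CPM in siBcat1 and 732 in siControl, and Pcolce2 at 197 and 107.

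The promoter windows of the enhancer genes are shown because these relatives differed in direction. Each window runs from 250 bases before to 50 bases after the RefSeq transcript start (GRCm38.p6), 5′ to 3′ on the gene's strand, for Pcolce2 at chr9:95637378-95637677 (plus strand) and for Pcolce at chr5:137611355-137611654 (minus strand). The Pcolce window lies inside the gene span given above, which begins on the minus strand at 137613784, so the annotations place its start differently. Capitals mark GGGCGG on either strand, the core of the GC box. Overlapping matches run together in capitals.
Pcolce2: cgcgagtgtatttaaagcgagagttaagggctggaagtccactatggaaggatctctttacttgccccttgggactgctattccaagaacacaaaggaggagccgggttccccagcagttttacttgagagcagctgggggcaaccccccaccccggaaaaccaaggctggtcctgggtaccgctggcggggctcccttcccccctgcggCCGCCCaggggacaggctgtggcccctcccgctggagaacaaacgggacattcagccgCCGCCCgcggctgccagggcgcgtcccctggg
Pcolce: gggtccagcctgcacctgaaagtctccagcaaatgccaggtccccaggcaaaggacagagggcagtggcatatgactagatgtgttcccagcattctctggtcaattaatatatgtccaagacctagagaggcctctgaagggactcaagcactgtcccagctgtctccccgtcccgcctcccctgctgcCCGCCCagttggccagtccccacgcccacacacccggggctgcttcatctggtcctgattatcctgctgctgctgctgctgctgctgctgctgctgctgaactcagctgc
The Pcolce2 window held 2 matches and the Pcolce window 1. GGGCGG occurs in 35.7% of the 32851 promoter windows of this length in the RefSeq table. Searched on both strands, neither window held the TATA box TATAAA, which 13.6% of windows hold, or the CCAAT box, which 37.4% hold. The AP-1 site TGANTCA (7.81% of windows) and the ACGTG form of the hypoxia response core (19.6%) were absent from both as well. The GCGTG form of that core was not searched for. Just after its start the Pcolce window holds 12 CTG triplets in a row, and GC made up 59.3% of this window and 63.7% of that of Pcolce2, against a median of 52.7% over all windows.

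Genes of the N-propeptide step were lower together. Adamts2 (chromosome 11, 50602084 to 50807573, plus strand), whose loss in humans causes the dermatosparaxis type of Ehlers-Danlos syndrome, with fragile skin, had 20705 counts in siBcat1 and 57901 in siControl, or 41.1 and 126 TPM. Its log2 fold was -1.11 [-1.13 to -1.09]. Adamts2 also has the longest transcript of the 10, with 7266 bases, and length-adjusted the value was -0.21 or -0.22. Adamts14 (chromosome 10, 61197112 to 61273438, minus strand) was the scarcest of the 10, with 809 counts in siBcat1 and 2249 in siControl, or 2.25 and 6.84 TPM. The log2 fold of Adamts14 was -1.10 [-1.22 to -0.98], and length-adjusted it was -0.51 or -0.52. Levels of both genes kept their proportion, with Adamts14 at 5.47% of the Adamts2 TPM in siBcat1 and 5.44% in siControl.

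The promoter windows of this pair are shown in the same way because the pair differed alike: Adamts2 at chr11:50601835-50602134 (plus strand) and Adamts14 at chr10:61273370-61273669 (minus strand).
Adamts2: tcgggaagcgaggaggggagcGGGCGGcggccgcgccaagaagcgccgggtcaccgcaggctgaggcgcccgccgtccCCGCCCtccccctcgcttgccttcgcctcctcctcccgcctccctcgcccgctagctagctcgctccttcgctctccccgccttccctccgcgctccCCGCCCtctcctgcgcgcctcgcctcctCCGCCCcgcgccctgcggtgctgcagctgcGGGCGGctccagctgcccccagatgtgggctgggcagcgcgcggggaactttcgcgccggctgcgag
Adamts14: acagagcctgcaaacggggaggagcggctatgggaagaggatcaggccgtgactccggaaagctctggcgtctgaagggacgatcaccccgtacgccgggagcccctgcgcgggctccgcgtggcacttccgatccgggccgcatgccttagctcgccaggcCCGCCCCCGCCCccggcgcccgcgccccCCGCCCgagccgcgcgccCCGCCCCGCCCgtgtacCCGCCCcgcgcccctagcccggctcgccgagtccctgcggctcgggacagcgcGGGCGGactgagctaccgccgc
Both are rich in GC, with 77.3% for Adamts2 and 76.7% for Adamts14. GGGCGG matched 5 times in the Adamts2 window and 7 times in that of Adamts14, and the other 4 motifs were in neither. A promoter window was found in the table for 5 of the 10 genes, the fifth being Loxl4, with 3 matches to GGGCGG.

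Ordered by log2 fold, the 10 genes ran from Loxl2 through Adamts2, Adamts14, Loxl3, Lox, Loxl1, Loxl4, Pcolce and Bmp1 to Pcolce2. Counting intervals of neighbours overlapped between Adamts2 and Adamts14 and between Adamts14 and Loxl3, and at no other step. Ratios within a library gave a similar picture: of the 45 pairs of genes, 7 had TPM ratios within 1.1-fold of each other in both libraries, and 14 had ratios that differed at least 2-fold. No share over pairs of other measured genes is given here, and the 45 pairs all rest on the same 10 genes. By TPM the closest ratios, picked from the 45 pairs for their closeness, were those of Bmp1 with Pcolce, Lox with Loxl1, and Adamts2 with Adamts14. Once the annotated length trend is removed these pairs part, with 0.12 for Bmp1 and -0.63 for Pcolce, -0.14 for Lox and -0.39 for Loxl1, and -0.21 for Adamts2 and -0.51 for Adamts14. The pair farthest apart was Loxl2 and Pcolce2, with Loxl2 at 48.9% of the Pcolce2 TPM in siBcat1 and 281% in siControl.

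With DESeq2 size factors, library totals, upper-quartile factors or TPM the directions of all 10 were the same as above, but the number past a given size depended on the scale. Under upper-quartile factors 1 gene, Loxl2, was at least 2-fold lower (10.3% of measured genes) and 1, Pcolce2, at least 2-fold higher (8.21%); at 1.5-fold the counts were 4 lower (20.8%) and 1 higher (23.3%). From TPM, 6 were at least 2-fold lower (24.1%) and 0 at least 2-fold higher (0.976%), and at 1.5-fold 9 were lower (46.5%) and 0 higher (3.56%). The implied length left 1 at least 2-fold lower (5.37%) and 0 at least 2-fold higher (3.87%), with 3 lower (13.7%) and 1 higher (12.3%) at 1.5-fold. Removal of a GC trend besides the annotated length trend left 1 at least 2-fold lower (5.17%), 1 at least 2-fold higher (3.46%), 1 at least 1.5-fold lower (13.6%) and 1 at least 1.5-fold higher (11.6%).

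**Figure D4:**
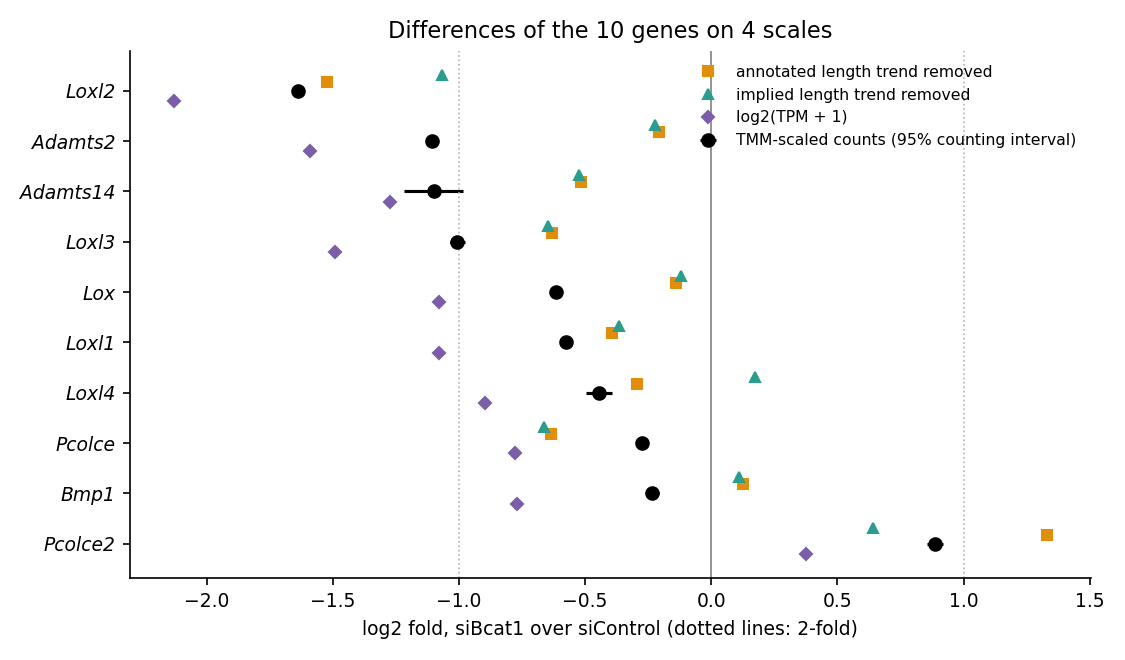
Log2 fold (siBcat1 over siControl) of the 10 genes from scaled counts with 95% counting intervals (black), with the annotated (squares) or implied (triangles) length trend removed, and from TPM (diamonds); dotted lines mark 2-fold. Loxl2 lies past -1 and Pcolce2 above 0 on all 4 scales, while Bmp1 and Loxl4 lie on both sides of 0.

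The deposited counts and TPM also allow counts per TPM to be compared between the libraries. Counts per TPM were the same in both libraries, within 0.001 on the log2 scale, for 93.7% of the 6300 measured genes with 1 RefSeq accession, and for 25.7% of the 3633 genes with more than 1. Among the 10 genes, Loxl1, Loxl2, Loxl3, Pcolce, Pcolce2, Adamts2 and Adamts14 have 1 accession, Loxl4 and Bmp1 have 2, and Lox has 3. In Lox, counts per TPM were 2.87% lower in siBcat1 (log2 ratio -0.042), and in Bmp1 they were 2.72% higher (0.039). In Loxl4 they were nearly the same in both libraries (-9.3e-05). Of all measured genes, 2.43% had a log2 ratio at or below that of Lox and 97.7% one at or below that of Bmp1. Most of these genes have 1 accession and a ratio near even, and ranks among the 3633 genes with more than 1 accession are not given here. Values per transcript were not used here. Of the genes that overlap one of the 10 in the annotation, the one with the most counts was Htra2, which overlaps Loxl3 by 1297 bases on the opposite strand and had 6903 counts in siBcat1 and 6938 in siControl; the others listed in the table had at most 35 counts in either library. Loxl2 is overlapped on the opposite strand for 74219 bases by the antisense gene Gm27177, and whether strand was used in counting is not given in the sources used here.

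Most substrates of these enzymes were lower in siBcat1 too. A list of 13 substrates (procollagen chains, elastin and small proteoglycans) had 12 measured genes, of which 6 were at least 2-fold lower (13.0% of measured genes) and none at least 2-fold higher (5.58%), with a median log2 fold of -0.998. Length-adjusted, none of the 12 was at least 2-fold lower (5.39% of measured genes) or higher (4.11%), and the median was -0.48. Col11a1, a minor fibrillar chain, had 14.99 TPM in siBcat1 and 71.9 in siControl, with a log2 fold of -1.76 [-1.79 to -1.72]. Col5a1, the chain that starts fibrils, had 76.1 and 280 TPM in siBcat1 and siControl, and a log2 fold of -1.38 [-1.39 to -1.36]. Eln, the elastin gene, had 35.2 TPM in siBcat1 and 124 in siControl, with a log2 fold of -1.31 [-1.34 to -1.28]. Col2a1, the main cartilage collagen, had 6.83 TPM in siBcat1 and 20.1 in siControl, and a log2 fold of -1.05 [-1.12 to -0.99]. The type I chains Col1a1 and Col1a2 were the remaining genes past 2-fold. Length-adjusted, these 6 genes had -0.81 (Col11a1), -0.36 (Col5a1), -0.99 (Eln), -0.51 (Col2a1), -0.63 (Col1a1) and -0.67 (Col1a2).

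Set against the procollagen transcripts of the same library, which summed to 3126 TPM in siBcat1 and 10367 in siControl, no enzyme group was lower as a sum. This is not particular to these genes. The median log2(TPM + 1) fold of all measured genes was -0.52, so a gene at that median also has a higher ratio to the procollagen sum. With the annotated length trend removed, the median was 0.003 over all measured genes and -0.43 over the measured procollagen chains. Enhancer transcripts stood at 233 per 1000 procollagen TPM in siBcat1 and 107 in siControl. Bmp1 stood at 23.8 per 1000 in siBcat1 and 12.3 in siControl, and the lysyl oxidases at 236 and 170. The lysyl oxidase sum comes mostly from Lox and Loxl1. Loxl2 alone, with 75.5 TPM in siBcat1 and 334 in siControl, was lower relative to the procollagen sum. The N-proteinases stood at 13.9 per 1000 in siBcat1 and 12.8 in siControl, the nearest of the 4 to an even ratio before adjustment. On a log2 scale these ratios differed by 1.13 for the enhancers, 0.95 for Bmp1, 0.47 for the lysyl oxidases and 0.12 for the N-proteinases. The procollagen transcripts are long, with a median of 6025 bases over the measured chains, and the ratios depend on the length trend. With it removed from each gene, an alternative added after the data were seen, all 4 ratios were still higher in siBcat1. By the annotated length they differed by 0.30 for the enhancers, 0.62 for Bmp1, 0.13 for the lysyl oxidases and 0.31 for the N-proteinases, and by the implied length by 0.11, 0.63, 0.22 and 0.32 in the same order. Bmp1 then stood highest, and the N-proteinases were no longer nearest to an even ratio.

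**Figure D5:**
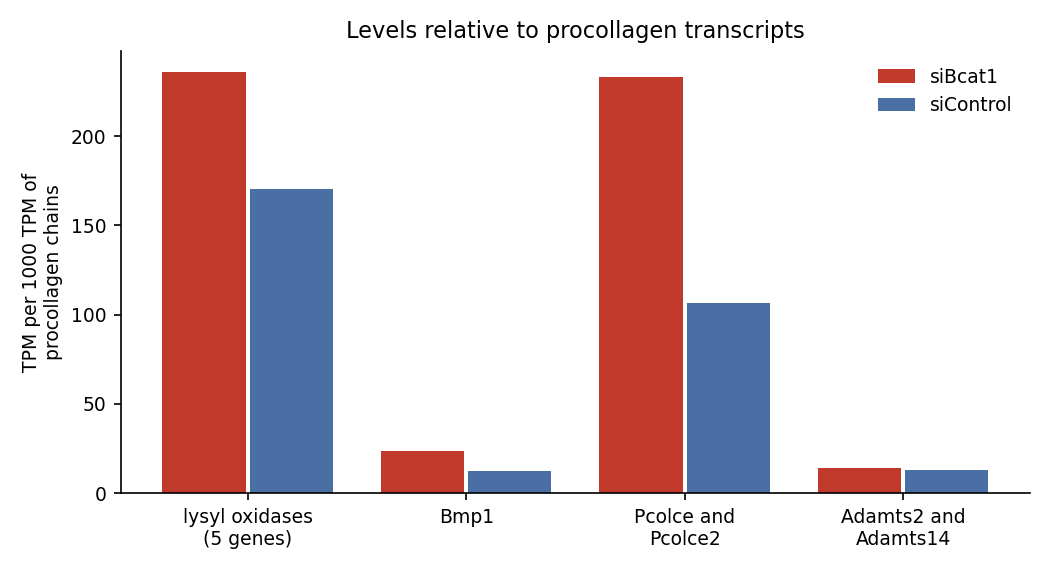
Summed TPM of each enzyme group per 1000 TPM of the procollagen chains of the same library, in siBcat1 (red, left) and siControl (blue, right), 1 library per group. The enhancers stand at 233 and 107 and the N-proteinases at 13.9 and 12.8.

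Other genes that act in the same steps were given as a list of 24, of which 20 were measured, with 7 at least 2-fold lower (13.0% of measured genes) and none at least 2-fold higher (5.58%). At least 1.5-fold lower were 11 (25.6%) and at least 1.5-fold higher was 1 (17.6%), Atox1, and the median log2 fold was -0.63. Length-adjusted, 5 were at least 2-fold lower (5.39%) and none at least 2-fold higher (4.11%), and the median was -0.25. Assembly scaffolds made up 8 of the 20 measured genes and 4 of the 7 that were at least 2-fold lower. Of the other scaffold genes, Thbs1 had a log2 fold of -0.92 (-0.21 length-adjusted) and Fbln5 -0.53 (0.17). Efemp2 had 0.43 and Sfrp2 0.35, with 0.09 and 0.15 length-adjusted, and both had the opposite sign on the log2(TPM + 1) scale (-0.088 and -0.16). Sparc, a collagen chaperone, had 560 TPM in siBcat1 and 2701 in siControl, with a log2 fold of -1.76 and -1.89 length-adjusted. Fn1 (fibronectin, which binds BMP1 and LOX) had -2.02 and -1.06 length-adjusted, Postn (periostin, which brings BMP1 to LOX) had -1.19 and -1.04, and Fmod (fibromodulin, which modulates crosslinking) had -1.28 and -1.14. Tgm2, the transglutaminase that forms another kind of crosslink, had 9.66 TPM in siBcat1 and 56.1 in siControl, with a log2 fold of -2.03 and -1.77 length-adjusted.

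Copper for the lysyl oxidases is loaded in the secretory pathway by the pump that Atp7a encodes. Atp7a had 6.52 TPM in siBcat1 and 19.1 in siControl, with a log2 fold of -1.05 [-1.10 to -0.99] and -0.52 length-adjusted. The copper chaperone gene Atox1 had 381 TPM in siBcat1 and 308 in siControl, a log2 fold of 0.82, and -0.11 length-adjusted, which is the opposite sign. The copper importer gene Slc31a1 had 33.0 TPM in siBcat1 and 52.1 in siControl, with a log2 fold of -0.15 and 0.14 length-adjusted, again of the opposite sign. Pcsk5, the scarcest of the 4 proprotein convertases measured, had 2.06 TPM in siBcat1 and 7.25 in siControl, with a log2 fold of -1.31 and -0.51 length-adjusted. Furin had 35.9 and 86.4 TPM (-0.76 and -0.36 length-adjusted), and Pcsk7 had 9.02 and 19.4 (-0.61 and -0.28). Pcsk6 went the other way in scaled counts, with 0.46 and 0.88 length-adjusted, and had 41.1 TPM in siBcat1 and 42.4 in siControl. Of the 5 other procollagen proteinases, Tll1, a relative of Bmp1, was the only one measured, with 980 counts in siBcat1 and 1090 in siControl and a log2 fold of 0.22 [0.10 to 0.35]. Length-adjusted, Tll1 had 0.73, and its TPM went the other way, with 2.87 in siBcat1 and 3.49 in siControl. Adamts3, the third N-proteinase, had 54 counts in siBcat1 and 146 in siControl, Tll2 had 6 and 2, Mep1a 23 and 6, and Mep1b none in either, so the N-proteinase transcripts came almost wholly from Adamts2 and Adamts14.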

How the data were processed

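Messenger RNA was measured in 1 siBcat1 and 1 siControl library, grouped by the treatment label, from a stranded mRNA kit per the labels' protocols. Per the submitters' processing notes, mm10 was the genome build and the tools were FastQC, Trimmomatic, HISAT2 and StringTie; the sources used here give neither versions nor roles. The table of counts deposited by the authors holds raw whole numbers of reads per gene, per the file headers. Per the file headers, the authors also computed TPM values, whose sums are 998120 in siBcat1 and 998462 in siControl.

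Counts were scaled with TMM factors (0.969 for siBcat1 and 1.03 for siControl; edgeR 4.0.16, R 4.3.3), and a mean of 5 CPM over both libraries was the minimum for a gene. No test was possible with 1 library per group. Intervals are exact (Clopper-Pearson) 95% intervals of counting error. Transcript lengths were medians over GENCODE M21 transcripts matched by RefSeq accession, or by symbol where none matched; implied lengths are counts per TPM scaled to the annotated median. A lowess curve (fraction 0.3, 3 iterations, statsmodels 0.14.6) of log2 fold on log2 length was subtracted. The calculations were tested on simulated data with counting error only and a straight trend on known lengths. That checks the code and says nothing of spread between cultures or of lengths that are wrong. Promoters came from the RefSeq table (GRCm38.p6). Alternatives were upper-quartile factors, size factors from DESeq2 1.42.0, totals of the libraries, TPM with a pseudocount of 1 or 0.1, other CPM minimums and removal of length or GC trends. Named genes were the 10 members, Bcat1, and the listed related genes and substrates at least 2-fold apart. Atox1, Slc31a1, Thbs1, Fbln5, Efemp2, Sfrp2, Furin, Pcsk6, Pcsk7 and the proteinases other than Bmp1, Adamts2 and Adamts14 were named after their values were seen. The members and lists were chosen with earlier results of these data known.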

Additional observations from a re-analysis of the deposited data

How the results depend on the processing

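Pcolce2 was higher and Lox, Loxl1, Loxl2, Loxl3, Pcolce, Adamts2 and Adamts14 were lower in siBcat1 under the main scaling and all 10 alternatives run. Not all of these could have differed: the other CPM minimums leave the fold of a gene almost unchanged by design, and TPM entered with both pseudocounts. Loxl2 ranged from -2.14 to -1.07 on the log2 scale and Pcolce2 from 0.38 to 1.33. Bmp1 was lower by counts and TPM but had 0.12 with the annotated length trend removed, 0.11 with the implied length trend removed and 0.26 with length and GC trends removed; Loxl4 had 0.17 with the implied length trend removed. Upper-quartile factors shifted the median of all measured genes by 0.13, and TPM (pseudocount 1) by -0.46.

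Under upper-quartile factors, 1 of the 10 genes was at least 2-fold lower and 1 at least 2-fold higher; the medians were -0.47 for the 10 genes, -0.50 for the related genes and -0.87 for the substrates, and 2 related genes were at least 1.5-fold higher. With library totals the medians were -0.69, -0.72 and -1.09 in that order. With TPM, 6 of the 10 were at least 2-fold lower, 9 at least 1.5-fold lower and 0 at least 1.5-fold higher; 12 related genes were at least 2-fold lower and 0 at least 1.5-fold higher. The TPM medians were -1.08, -1.08 and -1.44 with a pseudocount of 1 and -1.08, -1.12 and -1.50 with 0.1.

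With the annotated length trend removed, 1 of the 10 was at least 2-fold lower, 3 at least 1.5-fold lower and 1 at least 2-fold higher, with medians of -0.34, -0.25 and -0.48; 5 related genes were at least 1.5-fold lower and 2 higher, and of the substrates 0 were at least 2-fold lower, 5 at least 1.5-fold lower and 1 higher. With the implied length, 1 of the 10 was at least 2-fold lower and 3 at least 1.5-fold lower, with medians of -0.29, -0.21 and -0.51; 6 related genes were at least 1.5-fold lower and 2 higher, and of the substrates 0, 5 and 1 were in the same classes as before. With length and GC trends removed, an alternative added after the data were seen, 1 of the 10 was at least 2-fold lower, 1 at least 1.5-fold lower and 1 at least 2-fold higher, with medians of -0.31, -0.21 and -0.52; of the related genes 4 were at least 2-fold lower, 1 at least 2-fold higher, 6 at least 1.5-fold lower and 2 higher, and of the substrates 0, 5 and 1 as before. Without a CPM minimum, 2 related genes were at least 2-fold and 3 at least 1.5-fold higher. The 2 were Tll2, with 6 counts in siBcat1 and 2 in siControl, and Mep1a, with 23 and 6, which are too few to rank a fold. No share over all genes is given for this setting. The cause of these differences was not tested. No paired analysis was possible because each group has 1 library, and for the same reason no replicate could be left out. The depth sets narrow counting intervals, and the spread between cultures is unknown.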
